A study of Mus musculus with 4 samples.

Results

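The chemokines and chemokine receptors of the liver were followed across cell classes in 4 single-cell RNA libraries from C57BL/6 mice. The set holds 39 genes, chosen by symbol from a list of ligands and receptors. A row was present for 38 of them, 25 ligands and 13 receptors, among the 31053 genes of the count table, and Cxcl11 is not analysed here. Each group was 1 library: a control-diet liver (control), a liver from a mouse fed CD-HFD, the diet named in the study's title, with low alpha-fetoprotein (low-AFP), a liver with high alpha-fetoprotein (high-AFP), and cells from a hepatocellular carcinoma region (HCC). The title of the high-AFP sample names the control diet while the names of its deposited files say CD-HFD, so that library is called by its AFP label alone. The age is 15 months by the titles of the groups but 17 months by their age entries. Livers were digested with collagenase, and the 2 liver fractions (hepatocytes and cholangiocytes purified on Percoll, and other cells sorted for viability) were mixed in equal parts, which sets the class shares in the liver libraries. The HCC sample is described as a cell suspension from the tumour region. Nothing in the labels says how many mice went into a library, and with 1 library a group no difference has a replicate check and none was tested.

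Chemokines are small secreted proteins that bind G protein-coupled receptors on other cells and direct their migration along a gradient. CC and CXC ligands are named for the spacing of their first cysteines, and most receptors take several ligands of 1 family. In the liver, macrophages, sinusoidal endothelium and stellate cells are known sources, and the ligands of CCR2, CXCR3 and CXCR6 are known for drawing monocytes and lymphocytes into the fatty or injured liver.

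After filters on genes, UMIs (unique molecules counted) and mitochondrial share, 6036, 5129, 7902 and 7491 cells remained in the libraries, in the order just given, with a median of 5443.5, 7395, 6301.5 and 4685 UMIs. Cells were clustered without any chemokine or receptor gene, so no class below was defined by the members, and classes were named from other marker genes. A level is given as CPM, the member's UMIs per 1000000 UMIs of nuclear genes summed over a class in a library, and 4 values in a row follow the order control, low-AFP, high-AFP, HCC. Intervals are exact 95% Poisson intervals and cover counting error only. Classes under 30 cells in a library were left out of that library: the HCC library held 9 sinusoidal endothelial-like cells and 0 mesenchymal-like cells, and the control held 24 mature dendritic-like and 17 patrolling monocyte-like cells. In sums over a class, more RNA per cell and more expressing cells cannot be told apart. T-like cells numbered 350, 389, 486 and 2318, and those of the HCC library lay mostly in other clusters than those of the liver libraries, as did its B-like cells. The cluster holding most other endothelial-like cells also differed between HCC and the livers, and the leading hepatocyte-like cluster differed between control, the AFP livers and HCC. The 500 hepatocyte-like cells of the HCC library leave out unnamed clusters with 309, 267 and 60 of its cells. These were led by Oat, by Akr1c18 and Afp, and by Cyp2a4, with Afp among the leading genes of the last as well. Transcripts of other cell types differed between libraries too: Alb, a hepatocyte gene, stood at 4743, 2320, 1445 and 476 CPM in T-like cells.

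The sequences before the start sites of 4 CXC ligands are shown because their levels differed between libraries in at least 1 class described below: Cxcl2 in neutrophil-like cells, Cxcl9 and Cxcl10 in endothelium, and Cxcl1 in cholangiocyte-like cells. They are the 250 bases upstream of the start site in RefSeq's annotation of GRCm38.p6, 5′ to 3′ on the gene's strand: Cxcl1 at chr5:90890995-90891244 (plus strand), Cxcl2 at chr5:90903649-90903898 (plus strand), Cxcl9 at chr5:92328080-92328329 (minus strand) and Cxcl10 at chr5:92348890-92349139 (minus strand). Capitals mark matches to the motifs named after them.
Cxcl1: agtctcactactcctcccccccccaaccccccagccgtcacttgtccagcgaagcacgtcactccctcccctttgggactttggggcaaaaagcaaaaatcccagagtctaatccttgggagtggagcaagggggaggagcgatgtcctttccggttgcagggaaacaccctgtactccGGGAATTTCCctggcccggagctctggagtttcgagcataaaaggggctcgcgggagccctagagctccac
Cxcl2: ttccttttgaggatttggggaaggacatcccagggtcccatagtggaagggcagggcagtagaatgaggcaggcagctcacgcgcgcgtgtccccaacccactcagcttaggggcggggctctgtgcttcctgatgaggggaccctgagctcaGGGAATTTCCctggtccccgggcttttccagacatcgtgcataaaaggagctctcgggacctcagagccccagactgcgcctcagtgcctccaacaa
Cxcl9: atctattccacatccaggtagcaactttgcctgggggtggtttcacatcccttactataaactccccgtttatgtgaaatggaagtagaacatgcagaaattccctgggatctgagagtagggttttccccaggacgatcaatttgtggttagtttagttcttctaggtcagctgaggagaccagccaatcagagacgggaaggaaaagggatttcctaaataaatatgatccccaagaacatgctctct
Cxcl10: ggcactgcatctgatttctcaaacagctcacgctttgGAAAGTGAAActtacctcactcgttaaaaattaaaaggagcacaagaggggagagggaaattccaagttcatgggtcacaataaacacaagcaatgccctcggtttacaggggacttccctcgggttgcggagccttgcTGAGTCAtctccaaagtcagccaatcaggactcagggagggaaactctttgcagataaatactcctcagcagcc

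The 4 motifs were searched on both strands in windows from 250 bases before to 50 bases after the start site, for which 30 of the 38 members had an entry (31 windows). The NF-kappa-B motif, with the fifth base free, was present in 0.411% of all 32851 windows and in those of Cxcl1, Cxcl2 and Ccr3, as GGGAATTTCC starting at position -71 from the start site of Cxcl1 and -97 from that of Cxcl2. The interferon-stimulated response element, with the fifth and the sixth base free, in 3.44% of all windows, was found for Cxcl10, Ccl19 and Cxcl14, and the Cxcl10 match, shown as GAAAGTGAAA because it lies on the other strand, began at position -213. The AP-1 motif TGANTCA occurred in 7.81% of all windows and in those of Cxcl9, Cxcl10 (position -74), Ccl9, Ccr3 and Ppbp, and the Cxcl9 match lies past its start site, outside the printed stretch. The gamma-activated sequence TTCNNNGAA, in 8.30% of windows, was found for Ccl17, Ccr6 and Cxcl14. No printed motif overlapped another, and a match describes letters in a window, not a bound site.

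**Figure D1:**
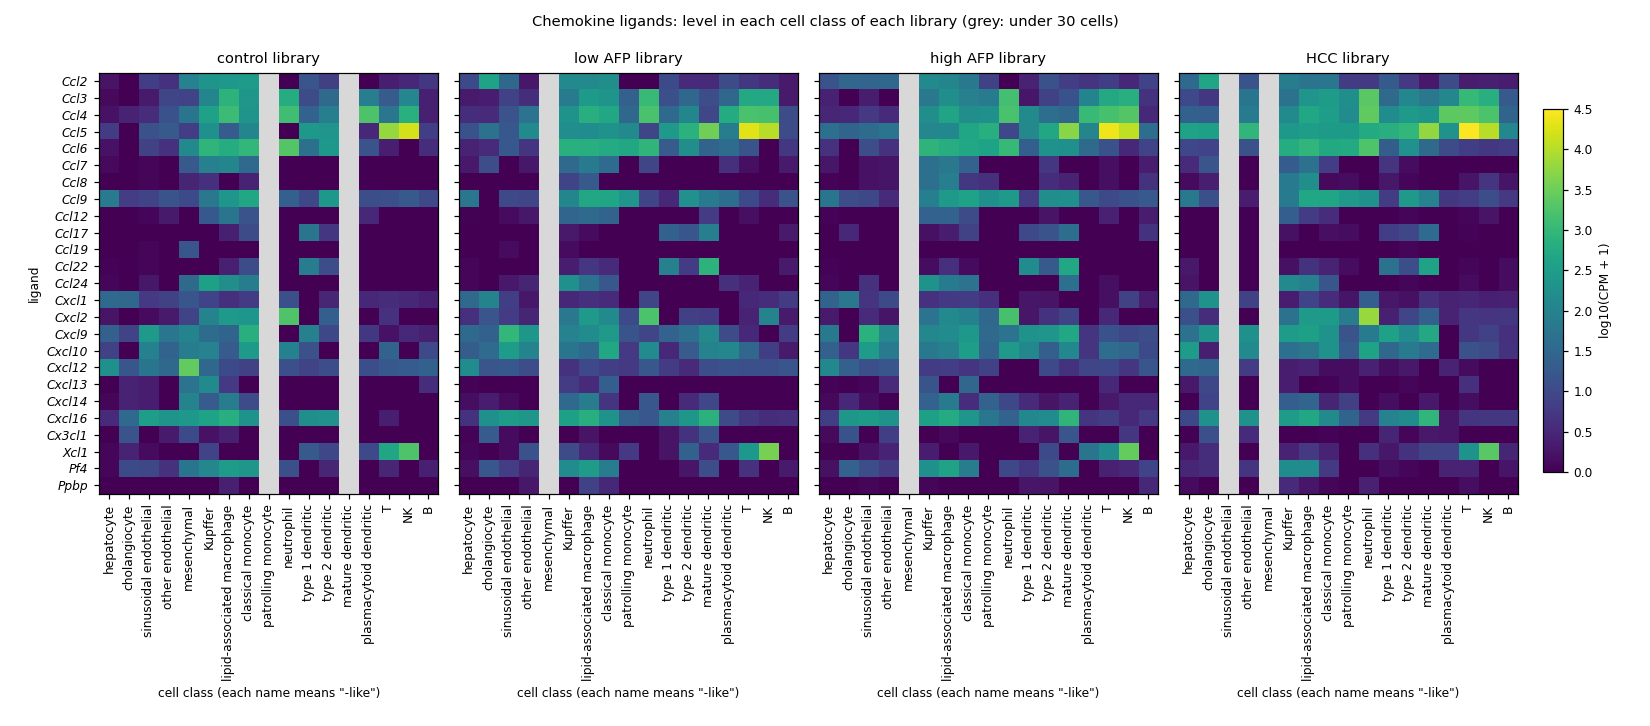
Level of each of the 25 ligands, as log10(CPM + 1), by cell class (columns) in each of the 4 libraries (panels); grey columns had under 30 cells. Ccl5 is brightest in T-like and NK-like cells, Cxcl2 in neutrophil-like cells and Xcl1 in NK-like cells in all 4 panels.

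The leading class of many ligands differed between libraries, in part because classes under 30 cells were left out. Of the 25 ligands, 7 had the same leading class, meaning the class with the highest CPM, in every library that measured them at 10 CPM and 10 UMIs or more: Ccl6 and Cxcl2 in neutrophil-like cells, Ccl7 and Ccl8 in lipid-associated macrophage-like cells, Ccl24 in Kupffer-like cells, Xcl1 in NK-like cells, and Cx3cl1 in cholangiocyte-like cells of the 1 library that measured it. The number of such ligands was 13 with no doublet removal and 11 with a minimum of 1000 UMIs a cell. Ccl17, Ccl22 and Cxcl16 were led by mature dendritic-like cells in every library but the control, where that class was left out. Cxcl12 and Cxcl14 were led in the control by mesenchymal-like cells, a class left out of every other library. Ccl19, Ppbp and the receptor Ccr3 were measured in no class of any library. The count table holds 2 rows with the symbol Ccl19, and only the first was counted. Counted by UMIs instead of level, T-like cells held 44.3% of the control library's Ccl5 and 89.7% of the HCC library's, and hepatocyte-like cells held 62.8%, 94.03%, 94.5% and 32.1% of Cxcl12. Such shares move with the number of cells of a class that were captured.

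**Figure D2:**
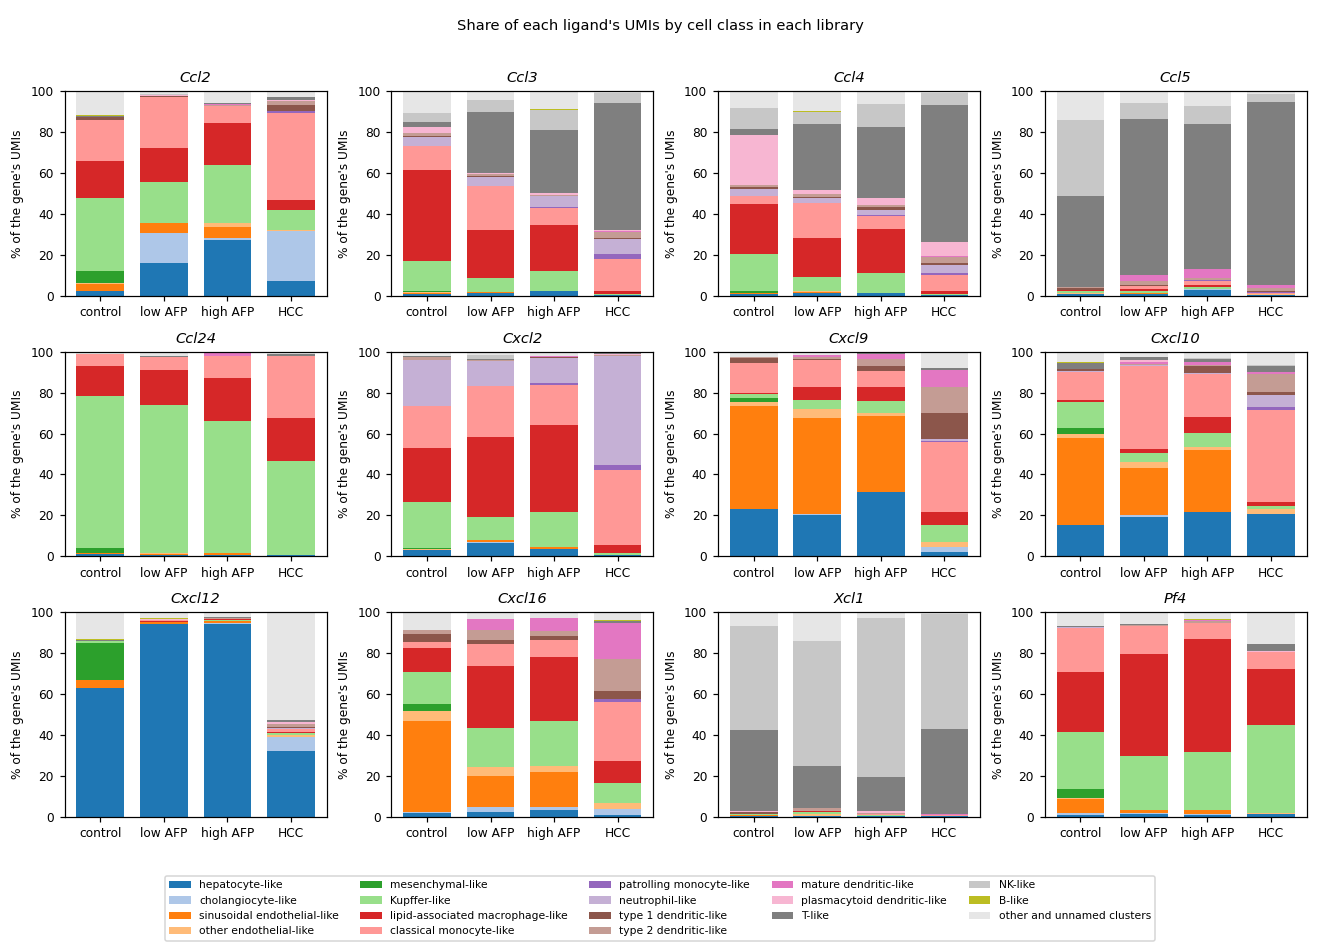
Share of the UMIs of 12 ligands (percent of the gene's UMIs in all kept cells of a library, vertical axis) that each cell class held in each library; light grey stands for other and unnamed clusters. T-like cells hold most Ccl5 outside the control, where NK-like cells hold 37.1%, and neutrophil-like cells hold 53% of Cxcl2 in the HCC library. The control NK-like class also carried T markers.

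Differences between libraries were counted over pairs of a member and a class, with at least 30 cells in both libraries and no fewer than 10 CPM and 10 UMIs in whichever was higher; a pair counted as different at 2-fold or more on the log2(CPM + 10) scale. Between low-AFP and control, 41 of 182 pairs were higher and 17 lower in low-AFP, where 1.34% and 1.42% of all gene and class pairs were higher and lower. High-AFP against control gave 47 higher and 25 lower of 179 pairs (all genes 1.41% and 1.65%). The share of member pairs past 2-fold was thus 22.5% and 9.34% in low-AFP and 26.3% and 14.0% in high-AFP. Of the 197 folds past 2-fold that reached 50 CPM and 50 UMIs in the higher library, over all 5 comparisons, 115 kept their direction and size past 2-fold under every processing alternative that gave a value. A clustering resolution of 0.5 gave one for 163 of the 197, a minimum of 1000 UMIs for 161, and the 15% mitochondrial limit and no doublet removal for 195 each.

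HCC against control had 57 higher and 33 lower of 176 pairs (all genes 3.74% and 5.52%), or 32.4% and 18.8%. HCC against high-AFP had 41 higher and 26 lower of 209 (all genes 2.46% and 3.93%). High-AFP against low-AFP had 30 higher and 21 lower of 215 (all genes 1.13% and 0.853%). The comparisons with control share that library and are not independent of each other. By family, HCC against control had 33 higher and 15 lower of 72 pairs among the CC ligands, 16 and 12 of 49 among the other ligands, and 8 and 6 of 55 among the receptors. The median log2 fold of all genes was 0.36 in neutrophil-like cells for HCC against control and 0.29 against high-AFP, it was -0.21 in Kupffer-like cells for HCC against control, and it was nearer to 0 in every other class and comparison. In neutrophil-like cells 21.8% of all genes were at least 2-fold higher in HCC than in control.

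**Figure D3:**
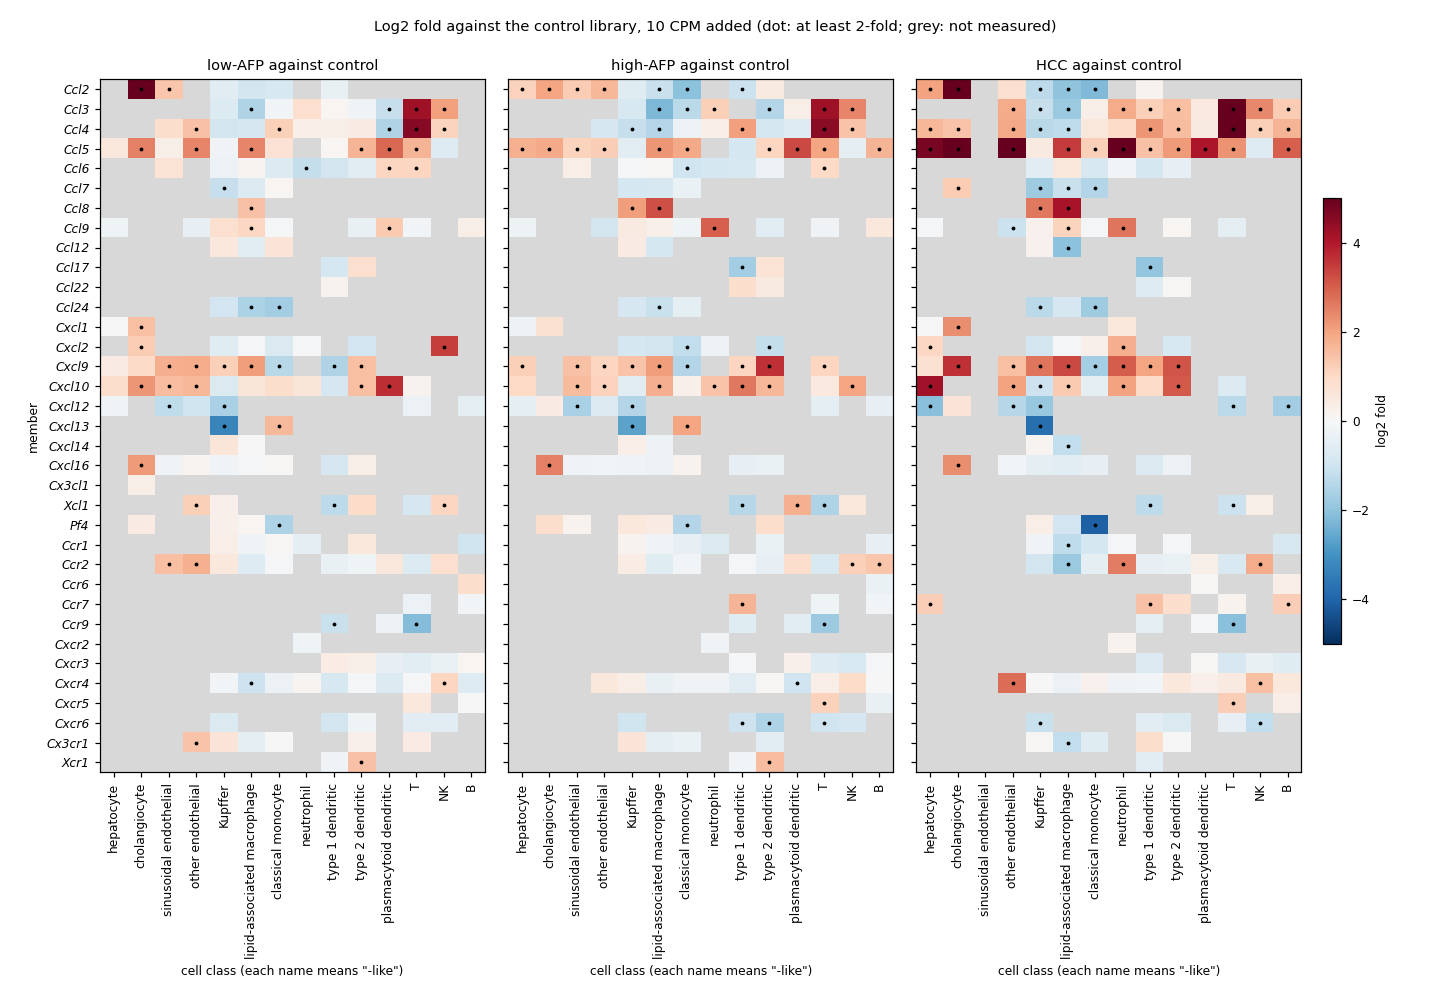
Log2 fold (10 CPM added) of each measured member against the control library in 14 cell classes (columns), for the low-AFP, high-AFP and HCC libraries (panels); dots mark at least 2-fold, grey means not measured, and all 3 panels share the control library. Ccl3 and Ccl4 are red in T-like cells in all panels and blue in lipid-associated macrophage-like cells, and Cxcl13 is blue in Kupffer-like cells.

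Stress genes differed in the HCC library too. A dissociation and stress list held 16 genes (Fos, Jun, Egr1, heat shock genes and others). Of its pairs, 61 of 199 were higher and 16 lower in HCC than in control (all genes 3.74% and 5.52%). Against high-AFP, 89 of 231 were higher and 5 lower in HCC (all genes 2.46% and 3.93%). Low-AFP against control had 3 higher and 14 lower of 198 (all genes 1.34% and 1.42%). In T-like cells 5 of 15 list genes were higher in HCC than in control (1.93% of all genes), with Ier3 at 405 against 14.9 CPM. In neutrophil-like cells 10 of 14 were higher (21.8% of all genes). The part of these genes in the levels of inducible ligands such as Ccl3, Ccl4 and Cxcl2 was not tested.

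Of the ligands that cytotoxic lymphocytes secrete, Ccl3, Ccl4 and Ccl5 were lower in control T-like cells than in those of any other library. Ccl5, a chemokine that activated T and NK cells secrete, stood at 6138, 20010, 24240 and 29490 CPM in T-like cells. The control interval was 6012 to 6266 CPM and the lowest other library's 19810 to 20220, so the intervals did not overlap, and the ratios to control were 3.26, 3.95 and 4.805. The control was the low library here. In NK-like cells Ccl5 was at 16240, 10370, 11920 and 10270 CPM and under 2-fold apart in all 5 comparisons. Mature dendritic-like cells carried it at 3310, 4963 and 5931 CPM in the low-AFP, high-AFP and HCC libraries.

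Ccl3 and Ccl4, the macrophage inflammatory proteins, were low in T-like cells of the control alone. That class leaves out a Klra9-led cluster, mostly of control cells, that was named NK-like. Control NK-like cells carried the T marker list at 6286 CPM, against 6511 in control T-like cells. They held Ccl3 at 118 and Ccl4 at 717 CPM. The folds below were not recomputed with those cells counted as T-like, so the part of this naming in them was not tested. Ccl3 was at 18.3, 522, 518 and 1041 CPM, from 27, 940, 974 and 11322 UMIs, which is 28.5-fold (counting interval 19.4 to 43.4), 28.3-fold (19.3 to 43.1) and 56.8-fold (39.02 to 86.2) the control level. Ccl4 was at 57.7, 1593, 1551 and 2404 CPM, 27.6-fold, 26.9-fold and 41.7-fold the control level. Low-AFP and high-AFP T-like cells had overlapping intervals in both genes (489 to 556 and 486 to 551 CPM for Ccl3), and HCC was above high-AFP by 0.99 for Ccl3 and 0.63 for Ccl4 on the log2 scale. With every cell thinned to 1000 UMIs, the share of T-like cells with a Ccl4 UMI was 4.33, 21.1, 23.1 and 50%. That of B-like cells, given for comparison, was 0, 0.755, 0.33 and 2.71%. Unthinned shares were 10, 39.9, 38.3 and 72.5% in T-like and 0.495, 1.89, 0.656 and 8.55% in B-like cells. Median UMI counts were 3717, 3899, 3264 and 3886 in T-like and 2811, 3004, 2446 and 3354 in B-like cells. Thinning left out 4, 10, 5 and 50 T-like and 1, 0, 2 and 13 B-like cells.

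NK-like cells differed from control in the same direction for both genes. Ccl3 was at 118, 524, 684 and 660.1 CPM there, with log2 folds of 2.06, 2.44 and 2.39 against control. Ccl4 was at 717, 1556, 1945 and 1651 CPM (1.11, 1.43 and 1.19), and in low-AFP a single cell held 51.9% of its UMIs, without which the level was 748 CPM. In high-AFP 1 cell held 41.7% of the Ccl3 and 1 cell 35.5% of the Ccl4 UMIs, with levels of 399 and 1254 CPM without it. Control NK-like cells were mostly of another cluster, led by Klra9, Klra7 and Tcrg-C2, and carried the T marker list at 6286 CPM against 1585, 1113 and 923 in the other libraries; with the Ncr1-led cluster alone the folds of Ccl3 were 1.73, 2.02 and 1.95 and those of Ccl4 1.78, 2.03 and 1.77.

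Xcl1, lymphotactin, which NK and CD8 T cells secrete to draw XCR1-bearing dendritic cells, was led by NK-like cells at 1816, 3843, 2729 and 2207 CPM. In low-AFP 1 cell held 43.3% of the UMIs, and without it the level was 2178 CPM, within the range of the other libraries. T-like cells held 449, 245, 147 and 205 CPM, the control being the high library, with a log2 fold of -1.54 in high-AFP and -1.09 in HCC. At a minimum of 1000 UMIs these folds were under 2-fold, at -0.54 and -0.13.

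**Figure D4:**
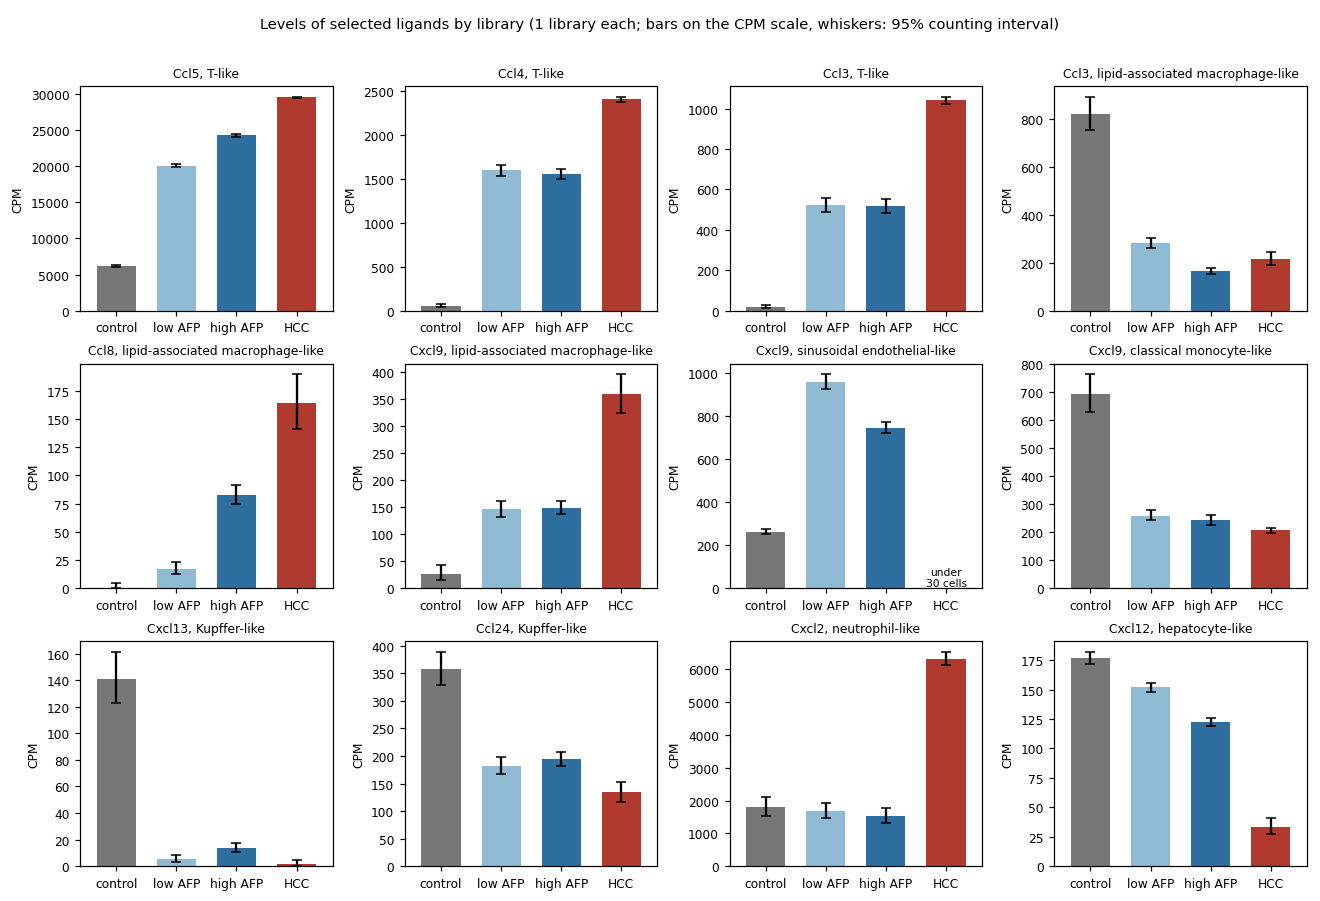
Level in CPM (vertical axes, from 0) of 12 ligand and class pairs in the 4 libraries, with exact 95% Poisson intervals as whiskers, which cover counting error only. T-like Ccl3, Ccl4 and Ccl5 are lowest in the control, whereas Ccl3 in lipid-associated macrophage-like cells, Cxcl9 in classical monocyte-like cells, and Cxcl13 and Ccl24 in Kupffer-like cells are highest there.

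Outside lymphocytes, Ccl5 was detected in many classes of the HCC library, and its levels are given beside the summed T marker list. In hepatocyte-like cells it was at 5.28, 12.8, 43.04 and 404 CPM (log2 fold 4.76 in HCC against control) while the summed T list was at 2.85, 4.24, 6.35 and 71.5 CPM. In cholangiocyte-like cells it was at 0, 47.2, 27.6 and 355 CPM, at least 63.97-fold higher in HCC than the limit that 0 UMIs allow in control, beside a T list of 5.55, 51.2, 8.51 and 225 CPM. Single cholangiocyte-like cells held 91.7%, 76.9% and 46.8% of the Ccl5 UMIs in low-AFP, high-AFP and HCC, and the levels without them were 3.94, 6.38 and 189 CPM. In neutrophil-like cells the levels were 0, 7.77, 8.51 and 559.9 CPM, at least 16.1-fold higher in HCC than control, with the T list at 0, 15.6, 0 and 216 CPM, and the HCC level was 346 CPM without 1 cell. HCC was the high library in each of these classes, for the ligand and for the list. Barcodes under the gene or UMI limits (2115, 1979, 1202 and 460, with 651602, 670057, 372332 and 943002 UMIs) carried Ccl5 at 35.3, 73.1, 110.1 and 171 CPM.

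Other endothelial-like cells held Ccl5 at 16.9, 135, 53.4 and 898 CPM beside a T list of 28.2, 52.1, 6.67 and 140.4 CPM, and 1 cell held 66.4% of the HCC UMIs. Plasmacytoid dendritic-like cells were at 2.19, 79.7, 109.7 and 192 CPM, 1 cell holding 84% of the low-AFP and 92.9% of the high-AFP UMIs, and B-like cells at 5.902, 9.75, 41.8 and 118 CPM. The T list was at 289, 475, 262 and 434 CPM in the former and 14.8, 0, 18.6 and 49.3 CPM in the latter, and counting a left-out cluster that Klra7 helps to lead as B-like turned the B-like fold of HCC against control to -2.95. Whether T cell RNA made part of these levels was not tested. In type 1 dendritic-like cells Ccl5 was at 249, 266, 132 and 701 CPM, with 1 cell holding 64.6%, 67.1% and 66% of the UMIs in the liver libraries. The T list there was highest in the control, at 268.7, 77.01, 55.39 and 198.2 CPM. Type 2 dendritic-like cells were at 217, 734, 469.9 and 970.5 CPM, all 3 libraries being above the control (T list 398, 468, 100.3 and 313 CPM), although 1 high-AFP cell held 54.8% and left 212 CPM. Among myeloid classes, classical monocyte-like cells were at 117, 202, 457 and 277 CPM, with high-AFP highest, lipid-associated macrophage-like cells at 19.7, 151, 127 and 321 CPM, with control lowest, and patrolling monocyte-like cells at 137, 684 and 282 CPM in the 3 libraries that held them, where 1 cell held 90%, 40.3% and 41.98% of the UMIs and the levels without it were 13.7, 409 and 164 CPM. In control classical monocyte-like cells 1 cell held 61.4% of the Ccl5 UMIs, and the level without it was 45.1 CPM. The T list stood at 5.01, 59, 36.5 and 82.5 CPM, 21.2, 54.4, 32 and 157 CPM and 241, 339 and 58.03 CPM in these classes, and its part was not tested.

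In macrophages Ccl3 and Ccl4 were highest in the control, opposite to T-like cells. In lipid-associated macrophage-like cells, the Trem2- and Gpnmb-bearing macrophages of fatty liver, Ccl3 was at 822, 283, 167 and 217 CPM, with log2 folds of -1.51, -2.23 and -1.87 against control. Ccl4 was at 1194, 656, 423 and 486 CPM (-0.85, -1.48 and -1.28). Kupffer-like cells, the resident macrophages, held Ccl3 at 116, 68.5, 61.4 and 45.99 CPM and Ccl4 at 379, 199, 163 and 139 CPM, both lowest in HCC. Of the Kupffer-like cells of the HCC library 72.4% lay in a shallow cluster, and their median was 1590 UMIs.

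Monocytes and neutrophils gave other orders. Classical monocyte-like cells held Ccl3 at 241, 217, 88.7 and 297 CPM, with high-AFP the low library, and Ccl4 at 209, 493, 169 and 313 CPM, where 1 low-AFP cell held 30.6%. In neutrophil-like cells Ccl3 was at 614, 1104, 1421 and 2222 CPM and Ccl4 at 1298, 1640, 1617 and 2480 CPM; the Ccl3 fold of HCC over control was 1.84 beside an all-gene median of 0.36 in that class. Without the top neutrophil-like cell, which held 43.1%, the high-AFP level of Ccl3 was 808 CPM. That of Ccl4 was 871 CPM in low-AFP and 919 CPM in high-AFP, where 1 cell held 46.9% and 43.2%. Patrolling monocyte-like cells held Ccl3 at 22.8, 72.9 and 170.2 CPM and Ccl4 at 31.9, 181 and 149 CPM in low-AFP, high-AFP and HCC, but without 1 cell the high-AFP level of Ccl4 was 12.7 CPM.

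In the dendritic classes HCC was the high library for both genes. Type 2 dendritic-like cells held Ccl3 at 35.5, 30.4, 6.496 and 119.9 CPM and Ccl4 at 83.4, 115, 40.4 and 259.7 CPM, the high-AFP library being lowest for both. In control 1 cell held 70.6% of the Ccl3 and 1 cell 62.5% of the Ccl4 UMIs, and the levels without it were 10.4 and 31.3 CPM. Mature dendritic-like cells held Ccl3 at 10.5, 12.8 and 61.99 CPM and Ccl4 at 7.91, 31 and 216 CPM in the 3 libraries with enough cells. Type 1 dendritic-like Ccl4 was at 25.4, 33.2, 137 and 154 CPM, but 1 cell held 89.7% of the high-AFP UMIs, and without it the level was 14.1 CPM, while with no doublet removal the high-AFP fold over control was -0.67. Plasmacytoid dendritic-like cells, the leading class of Ccl4 in the control, held it at 1717, 593, 1097 and 2343 CPM, the low-AFP library being lowest and 1 cell holding 46.1% in high-AFP. Other endothelial-like Ccl4 (12.4, 51.1, 2.501 and 72.9 CPM) rested on single cells, which held 90.9%, 92.3% and 76.4% of the UMIs in control, low-AFP and HCC.

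Ccl2 and Ccl7, CCR2 ligands that draw monocytes from the blood, were highest in the control in macrophages, whereas Ccl8 was highest in HCC. Ccl2, the main monocyte attractant, was at 209.5, 139, 136 and 79.7 CPM in Kupffer-like, 297, 166, 64.3 and 57.4 CPM in classical monocyte-like and 247, 128, 108 and 53.1 CPM in lipid-associated macrophage-like cells. In each of these classes control was highest and HCC lowest, with log2 folds of -1.29, -2.19 and -2.03 in HCC against control. Cholangiocyte-like cells, the bile duct epithelium, had the control as the low library at 0, 399, 29.8 and 451 CPM, with 0 UMIs in 58 control cells and at least 71.8-fold and 81.2-fold higher levels in low-AFP and HCC. Few cells carried it, 1 cell holding 44.1% of the UMIs in low-AFP and 33.3% in HCC.

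Ccl7, another CCR2 ligand, was led by lipid-associated macrophage-like cells at 115, 67.5, 62.8 and 47.7 CPM, with Kupffer-like cells at 90.4, 35.4, 45.1 and 19.01 CPM. In HCC the log2 folds against control were -1.12 and -1.79, from 53 and 31 UMIs, and 1 cell held 90.6% of the former, without which the level was 4.501 CPM. Ccl12, the mouse ligand closest to Ccl2, was at 54.6, 34.9, 25.3 and 5.402 CPM in lipid-associated macrophage-like and 16.3, 27.8, 24.9 and 20.9 CPM in Kupffer-like cells, from 121 UMIs at most, and 1 cell held 66.7% of the former in control.

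Ccl8, which in mice acts through CCR8, was almost absent from the control and graded over the other libraries. In lipid-associated macrophage-like cells it was at 0, 17.2, 82.8 and 164 CPM: 0 UMIs in 97 control cells allow up to 4.55 CPM, and the level was at least 18.2-fold higher in high-AFP and at least 36-fold higher in HCC. High-AFP exceeded low-AFP by 4.799-fold (counting interval 3.52 to 6.67). Kupffer-like cells showed the same order at 3.25, 7.28, 45.7 and 72.4 CPM, from 5, 22, 222 and 118 UMIs. In the lipid-associated macrophage-like class the summed markers of that cell type stood at 4759, 7070, 5834 and 11150 CPM and those of Kupffer cells at 16880, 19330, 18800 and 17970 CPM, and the part of the former in the Ccl8 levels was not tested.

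Ccl24, eotaxin-2, a CCR3 ligand, was led by Kupffer-like cells at 358, 182, 195 and 134 CPM, the control being highest, with a log2 fold of -1.35 in HCC against it. Lipid-associated macrophage-like cells held it at 165, 48.4, 71.6 and 89.1 CPM, again highest in control, and classical monocyte-like cells at 75.2, 15.6, 51.2 and 14.9 CPM, with control and high-AFP above low-AFP and HCC and 1 cell holding 55.6% of the control UMIs. Ccl6, a CCR1 ligand of mice, was led by neutrophil-like cells at 1958, 863, 1047 and 1787 CPM, where low-AFP was -1.17 from control. Classical monocyte-like cells held 969, 592, 475 and 548 CPM, 1 cell carrying 38.6% of the control UMIs, and mature dendritic-like cells 26.4, 182 and 34.7 CPM in the last 3 libraries, 1 cell carrying 45% of those in high-AFP.

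Ccl9, also a CCR1 ligand of mice, was even across libraries in classical monocyte-like cells at 471, 435, 405 and 454 CPM. Lipid-associated macrophage-like cells held it at 229, 479.5, 272 and 506 CPM, with low-AFP and HCC just past 2-fold over control. In neutrophil-like cells it was at 23.2, 7.77, 255 and 204 CPM, but 1 cell held 93.3% of the high-AFP UMIs, and mature dendritic-like cells were at 68.5, 177 and 99.8 CPM. Low-AFP and control were at 1 and 2 UMIs in the neutrophil-like class.

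Ccl17 and Ccl22, ligands of CCR4 on regulatory and type 2 helper T cells, had their highest levels in dendritic classes. Ccl22 was at 796, 496 and 411 CPM in mature dendritic-like cells of the low-AFP, high-AFP and HCC libraries, with no comparison past 2-fold, and at 77.5, 89.8, 153 and 46.5 CPM in type 1 dendritic-like cells, where single cells held 50%, 79.8%, 61.5% and 47.4% of the UMIs. Ccl17 was at 84.3, 41.9 and 36.8 CPM and 52.05, 24.2, 8.79 and 5.87 CPM in these classes, and 1 cell held 95.3% of the type 1 control UMIs and 91.4% of the mature HCC UMIs. Ccl19, a CCR7 ligand of stromal cells, reached 14.9 CPM at most in a named class, from 8 UMIs of its counted row in control mesenchymal-like cells.

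Cxcl9 and Cxcl10, interferon-induced ligands of CXCR3 that draw activated T cells, were higher in the endothelium of both AFP livers. Sinusoidal endothelial-like cells held Cxcl9 at 264, 959.5 and 747 CPM in control, low-AFP and high-AFP, 3.63-fold (3.41 to 3.88) and 2.83-fold (2.66 to 3.01) the control level. Cxcl10 was at 95.1, 299 and 303 CPM there, 3.15-fold and 3.19-fold. Thinned to 1000 UMIs, 16.9, 46.2 and 37.3% of these cells had a Cxcl9 UMI (37.2, 76.2 and 69.6% unthinned, at a median of 4000, 4342 and 4200 UMIs), against 0, 1.51, 0.66 and 0.286% of B-like cells over the 4 libraries (0.495, 1.89, 2.95 and 1.12% unthinned, at 2811, 3004, 2446 and 3354 UMIs). Other endothelial-like cells held Cxcl9 at 58.6, 238, 133 and 183 CPM and Cxcl10 at 25.9, 102, 70.03 and 135 CPM, with the control lowest in both.

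Macrophages followed for Cxcl9. Lipid-associated macrophage-like cells were at 27.3, 147, 149 and 359 CPM and Kupffer-like cells at 37.7, 98.2, 119 and 293 CPM, with control lowest and HCC highest in both, although 1 cell held 64.9% and 40.2% of the HCC UMIs and the levels without it were 126 and 175 CPM, the former below both AFP livers. Classical monocyte-like cells gave the opposite order at 695, 260.3, 245 and 208 CPM; 1 cell held 38.5% of the control UMIs, and without it the control stood at 428 CPM, still the highest. Dendritic classes were at 8.34, 42.5, 218 and 150.2 CPM (type 2), 88.4, 24.9, 197 and 378 CPM (type 1) and 129, 478 and 525 CPM (mature, last 3 libraries). Type 2 cells were lowest in control, and type 1 cells in low-AFP, where the log2 fold against control turned to 0.47 with no doublet removal and 0.22 at the 15% mitochondrial limit. Hepatocyte-like cells held 23.3, 34.3, 66.3 and 45.8 CPM beside 23.02, 25.4, 34.9 and 8.48 CPM in the barcodes under the limits, and the cholangiocyte-like levels of 7.404, 23.6, 0 and 206 CPM rested on 1 cell with 93.8% of the HCC UMIs.

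Cxcl10 had classical monocyte-like cells as its leading class in the liver libraries, at 271, 504, 328 and 192 CPM, under 2-fold apart in all 5 comparisons. Its highest level in HCC was in neutrophil-like cells, at 92.7, 148, 264 and 404 CPM. Hepatocyte-like Cxcl10 was at 6.53, 20.5, 22.8 and 292 CPM, but 1 HCC cell held 87.6% of the UMIs, and the level is 36.1 CPM when that cell is set aside. Kupffer-like cells were at 99.5, 56.2, 65.9 and 43.5 CPM, with 1 cell holding 62.8% in control and the HCC fold turning to 0.94 when every cell weighed the same, and lipid-associated macrophage-like cells at 18.2, 33.4, 89.3 and 59.4 CPM, with high-AFP highest. Type 2 dendritic-like cells were at 0, 18.2, 21.6 and 72.7 CPM, at least 11.6-fold higher in HCC than the limit in control, type 1 cells at 12.1, 2.27, 128 and 31.3 CPM, with 65.5% of the high-AFP UMIs in 1 cell, and mature cells at 100.1, 126 and 36.8 CPM in the last 3 libraries, where single cells held 97.4%, 94.2% and 85.7%.

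The CXCR2 ligands, which draw neutrophils, had separate leading classes. Cxcl2 was led by neutrophil-like cells at 1796, 1671, 1523 and 6331 CPM. The 3 liver libraries had overlapping intervals (1524 to 2102 CPM in control, 1455 to 1910 in low-AFP and 1308 to 1764 in high-AFP), and HCC stood above them at 3.52-fold the control (counting interval 3.002 to 4.17). Tnf, of the NF-kappa-B list, was also higher in these cells, at 518 against 139 CPM. Classical monocyte-like cells held Cxcl2 at 234, 139, 94.04 and 278 CPM, 1 cell carrying 52.9% of the control UMIs, and patrolling monocyte-like cells at 9.11, 31.7 and 80.5 CPM in the last 3 libraries.

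Cxcl1 had its highest level in epithelial classes, hepatocyte-like cells in the control and cholangiocyte-like cells in the other libraries. In HCC the leading class held 137 of its 686 UMIs. Hepatocyte-like cells held it at 33.97, 34.9, 26.5 and 34.4 CPM, under 2-fold apart, beside 21.5, 41.8, 13.4 and 2.12 CPM in the barcodes under the limits. Cholangiocyte-like cells held 31.5, 108, 59.5 and 196 CPM, with control lowest and HCC highest, and 1 cell holding 48.2% of the HCC UMIs. Ppbp, platelet basic protein, was at 6.37 CPM at most in a named class, from 17 UMIs in low-AFP lipid-associated macrophage-like cells.

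Cxcl12, the stromal ligand of CXCR4, had its highest level of any named class in control mesenchymal-like cells, at 2670 CPM, a class that had 3, 2 and 0 cells in the other libraries. Hepatocyte-like cells held 177, 152, 123 and 33.7 CPM, HCC being -2.10 from control and -1.60 from high-AFP on the log2 scale. Their intervals ran from 172 to 182 CPM in control to 27.3 to 41.1 in HCC without overlap, and the cluster that held most of the class was another one in HCC than in control. Unnamed HCC clusters with Afp among their leading genes are not part of this class. The barcodes under the limits carried 114, 118, 77.9 and 2.12 CPM of Cxcl12. Sinusoidal endothelial-like cells held 54.8, 16.6 and 11.3 CPM in control, low-AFP and high-AFP, the control being the high library. The hepatocyte marker list was ordered alike, at 133000, 104600, 84520 and 65410 CPM in hepatocyte-like cells, and the HCC cells of this class had a median of 2480 UMIs against 14350 in control. The part of either in the Cxcl12 result was not tested.

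Cxcl13, the B cell attractant that binds CXCR5, was highest in Kupffer-like cells of the control. In Kupffer-like cells it was at 141, 5.29, 13.8 and 1.23 CPM, from 217, 16, 67 and 2 UMIs. The control interval of 123 to 161 CPM lay above those of low-AFP (3.02 to 8.59), high-AFP (10.7 to 17.5) and HCC (0.148 to 4.43), and the level was 26.7-fold, 10.2-fold and 115-fold (31.5 to 956) lower than in control. In classical monocyte-like cells it was at 0, 21.1, 29.8 and 0.103 CPM, and 1 cell held 100% of the low-AFP and 85.4% of the high-AFP UMIs. The Kupffer marker list was at 26160, 26480, 26340 and 27820 CPM in Kupffer-like cells. Lists highest in control there included the sinusoidal endothelial (1080, 291.7, 233.3 and 196.2 CPM) and hepatocyte lists (8349, 3226, 3295 and 995.9 CPM). The classical monocyte list was not, at 382.5, 546.4, 562.1 and 296.2 CPM. The part of other cell types in the Cxcl13 levels was not tested.

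Cxcl16, the membrane-bound ligand of CXCR6, was under 2-fold apart in its leading classes. Mature dendritic-like cells held it at 793, 873 and 902 CPM in the last 3 libraries and lipid-associated macrophage-like cells at 702, 657, 577 and 477 CPM. Cholangiocyte-like cells held 33.3, 181, 238 and 206 CPM, with control the low library at log2 folds of 2.14, 2.52 and 2.32. Cxcl14, a ligand of epithelial and stromal cells, was led by lipid-associated macrophage-like cells at 80.4, 80.2, 66.8 and 28.8 CPM, HCC being -1.22 from control, except in the control, where mesenchymal-like cells held 101 CPM. Pf4, platelet factor 4, which macrophages also make, was at 289.7, 310.1, 384 and 146 CPM in lipid-associated macrophage-like and 119.7, 146, 178 and 155 CPM in Kupffer-like cells. In classical monocyte-like cells Pf4 was at 239, 76.2, 80.7 and 4.86 CPM, HCC being -4.07 from control, where 1 cell held 48.2% of the UMIs; the Kupffer list stood at 2484, 2713, 3535 and 1338 CPM there. Cx3cl1, fractalkine, reached 18.4 CPM at most in a named class, from 14 UMIs in low-AFP cholangiocyte-like cells.

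**Figure D5:**
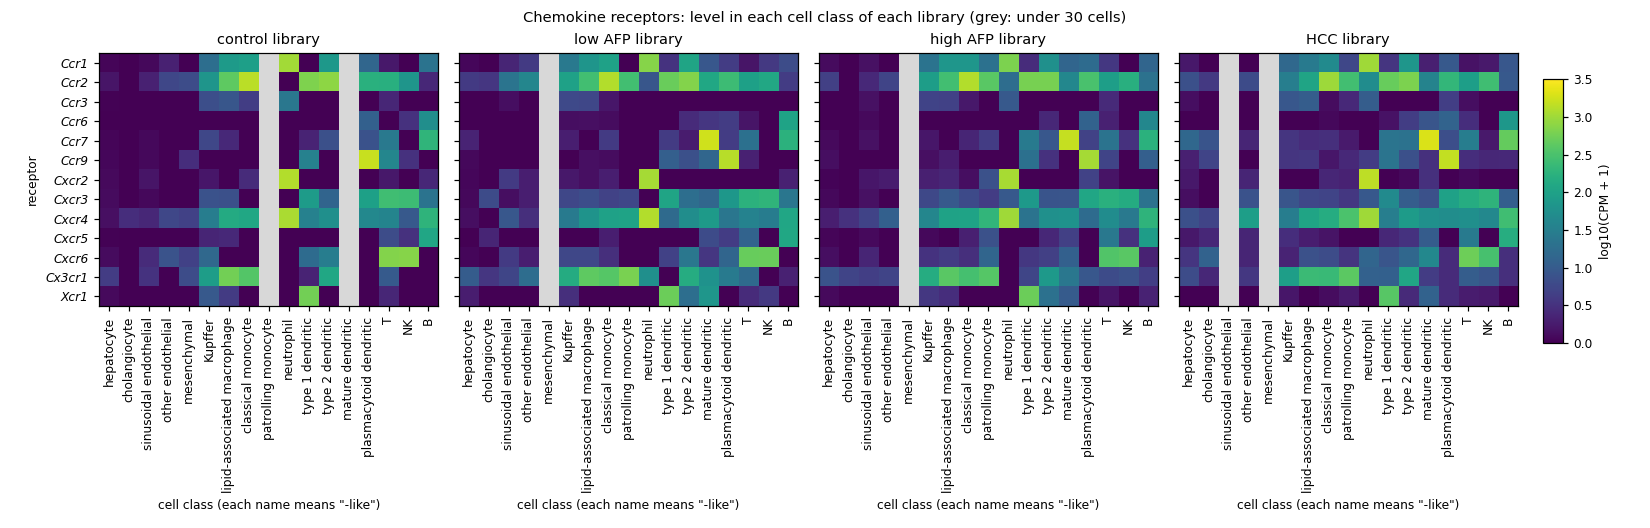
Level of each of the 13 receptors, as log10(CPM + 1), by cell class (columns) in each of the 4 libraries (panels); grey columns had under 30 cells. Ccr9 in plasmacytoid dendritic-like, Cxcr2 in neutrophil-like and Xcr1 in type 1 dendritic-like cells stand out in the same column of every panel.

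Of the 13 receptors 8 had the same leading class across libraries. Ccr7 was led by mature dendritic-like cells in every library but the control, where that class was left out. Receptor pairs past 2-fold were 5 higher and 3 lower of 54 in low-AFP against control, or 9.26% and 5.56% (all genes 1.34% and 1.42%). They were 5 and 5 of 52 in high-AFP, or 9.62% each way (all genes 1.41% and 1.65%), and 8 and 6 of 55 in HCC, or 14.5% and 10.9% (all genes 3.74% and 5.52%). The 8 with 1 leading class throughout were Ccr1, Cxcr2 and Cxcr4 (neutrophil-like), Ccr2 (classical monocyte-like), Ccr6 and Cxcr5 (B-like), Ccr9 (plasmacytoid dendritic-like) and Xcr1 (type 1 dendritic-like). Cxcr2, the receptor for Cxcl1 and Cxcl2, was at 1263, 1081, 1106 and 1412 CPM and under 2-fold apart in all 5 comparisons, in the class that also led its ligand Cxcl2. Ccr1, a receptor of Ccl3, Ccl5, Ccl6 and Ccl9, was at 1043, 731, 647 and 1008 CPM in neutrophil-like cells and at 78.9, 65.6, 67.7 and 27.01 CPM in lipid-associated macrophage-like cells, where HCC was lowest. Cxcr4, the Cxcl12 receptor, was at 1135, 1236, 1004 and 1008 CPM in neutrophil-like cells.

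Cxcr4 differed in smaller classes. Other endothelial-like cells held it at 4.51, 1.97, 10.8 and 91.4 CPM, HCC being 2.81 above control from 69 UMIs. The HCC cells of that class lay mostly in other clusters than the control's, and at the 15% mitochondrial limit the fold was 0.039. Cxcr4 was also measured in plasmacytoid dendritic-like cells at 41.7, 22.3, 15.7 and 50.9 CPM and lipid-associated macrophage-like cells at 135, 61.5, 102 and 109 CPM. Ccr2, the receptor of Ccl2, Ccl7 and Ccl12, was at 1362, 1259, 1250 and 965 CPM in classical monocyte-like cells, with HCC lowest but under 2-fold apart. Lipid-associated macrophage-like cells held Ccr2 at 423, 271, 273 and 109 CPM (log2 fold -1.86 in HCC against control) and Kupffer-like cells at 65.7, 99.6, 86.8 and 30.1 CPM, so the low library was HCC in all 3 myeloid classes. NK-like Ccr2 went the other way at 66.4, 126, 163 and 269.6 CPM, from 31 UMIs in control, but with the Ncr1-led cluster alone the high-AFP fold over control was -0.41.

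Cx3cr1, the fractalkine receptor of patrolling monocytes, was at 576, 424, 408 and 239.5 CPM in lipid-associated macrophage-like cells (log2 fold -1.23 in HCC against control) and at 628, 380.2 and 413 CPM in patrolling monocyte-like cells of the last 3 libraries. Xcr1, the receptor of Xcl1 on cross-presenting dendritic cells, was at 573, 511, 524 and 388 CPM, and type 1 dendritic-like cells held 94.04%, 88.4%, 90.2% and 95.4% of its UMIs. Ccr9, the gut-homing receptor, was at 1609, 1324, 1081 and 1522 CPM in plasmacytoid dendritic-like cells. Both were under 2-fold apart in their leading class.

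On lymphocytes, Cxcr6, the Cxcl16 receptor of liver-resident T and NKT cells, was at 708, 488, 349 and 532 CPM in T-like and 726, 499, 401 and 299.6 CPM in NK-like cells, the control being highest in both. The NK-like fold of HCC against control was -1.25, and with the Ncr1-led cluster alone it was -0.83. T-like Cxcr6 was just past 2-fold lower in high-AFP than in control, but the log2 fold was 0.48 at a minimum of 1000 UMIs. Cxcr3, the receptor of Cxcl9 and Cxcl10, was at 265, 178, 165 and 148 CPM in T-like and 246, 192, 142 and 188 CPM in NK-like cells, under 2-fold apart in all 5 comparisons. T-like cells held 54.5%, 44.8%, 47.9% and 67.8% of its UMIs.

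B-like cells led Cxcr5, the Cxcl13 receptor, at 118, 119, 88.2 and 150.1 CPM, and Ccr6 at 53.1, 107, 40.6 and 69.99 CPM, where low-AFP exceeded high-AFP with 99 and 35 UMIs. Ccr7, which guides cells to lymph nodes along Ccl19 and Ccl21, was at 1758, 1566 and 2015 CPM in mature dendritic-like cells of the last 3 libraries, under 2-fold apart. In B-like cells Ccr7 was at 193, 177, 173 and 466 CPM, HCC being 1.23 above control and 1.38 above high-AFP, and the HCC B-like cells lay mostly in another cluster than those of the livers. Ccr3, the eotaxin receptor, was at 23.2 CPM from 2 UMIs in control neutrophil-like cells and at 9.90 CPM from 11 UMIs in HCC lipid-associated macrophage-like cells, its highest values.

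The rest of the pathway was read from lists of other genes. Of 18 receptor signalling genes, 11 of 193 pairs were higher and 4 lower in HCC than in control (all genes 3.74% and 5.52%). Low-AFP had 6 higher and 2 lower of 191 pairs (all genes 1.34% and 1.42%). High-AFP had 4 and 4 of 187 (all genes 1.41% and 1.65%). Rgs1, which shortens receptor signals, was at 323 CPM in high-AFP and 22.8 in low-AFP patrolling monocyte-like cells, and Rgs2, of the same family, was at 203 CPM in high-AFP and 60.1 in control sinusoidal endothelial-like cells. Of 7 ligand processing genes, 0 pairs were higher and 8 of 38 were lower in HCC than in control. Among them was Dpp4, the peptidase that trims Cxcl10 and other ligands, at 90.1 against 379.9 CPM in other endothelial-like cells. Most HCC cells of that class lay in other clusters than the control's.

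The interferon-gamma list, 11 genes upstream of Cxcl9 and Cxcl10, had 13 higher and 0 lower of 123 pairs in low-AFP against control, 4 and 2 of 121 in high-AFP and 8 and 1 of 115 in HCC. In sinusoidal endothelial-like cells 1 of 9 was higher in low-AFP and 0 of 9 in high-AFP (0.838% and 0.974% of all genes). The NF-kappa-B list, 10 genes, had 14 higher and 5 lower of 109 pairs in HCC against control (all genes 3.74% and 5.52%). In neutrophil-like cells 4 of 7 were higher, beside 21.8% of all genes. In lipid-associated macrophage-like cells 5 of 10 of its genes were lower in high-AFP than in control, and 3 of 10 in low-AFP (0.937% and 0.574% of all genes). Atypical receptors, which bind ligands without signalling, had few measured pairs. Ackr1, their endothelial member, was higher in HCC than control at 133 against 24.8 CPM in other endothelial-like cells. The HCC cells of that class lay mostly in other clusters than the control's. Other ligands had no pair past 2-fold of 10 in HCC against control, and Cxcl5, a CXCR2 ligand, was at 80.1 CPM in low-AFP and 3.70 in control cholangiocyte-like cells. Of other receptors, Ccrl2 was at 977 CPM in HCC and 359 in control neutrophil-like cells.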

How the data were processed

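Single-cell RNA libraries of 4 mouse liver samples were deposited as 10x matrices of raw UMI counts per gene and barcode, which the authors made with Cell Ranger per the submitters' processing notes (software 3.0.2 per the file headers). The same notes list R 3.0, Seurat 3 and the mm9 build, while promoter sequences came from RefSeq on GRCm38.p6. Barcodes with at least 300 genes, 500 UMIs and at most 30% mitochondrial UMIs were kept, out of 11113, 9257, 11539 and 8929 barcodes with 71957655, 80505127, 97393862 and 65326793 UMIs (control first, then low-AFP, high-AFP, HCC). The mitochondrial limit removed 29.3%, 26.4%, 18.0% and 5.49% of those that passed the others. Scrublet (scanpy 1.11.5) set an automatic threshold that marked 12, 8, 4 and 0 barcodes, so the barcodes with the highest scores were removed instead, 0.8% per 1000 barcodes (323, 230, 575 and 513). Libraries shared 2 to 26 cell barcodes, at most 0.507% of a library.

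Cells were clustered without the members (2000 variable genes, 30 components, 15 neighbours, leidenalg 0.10.2 at resolution 1, no integration) and clusters named from marker lists. Of 55 clusters, 11 stayed unnamed (1980 cells). Counts were summed per class and library and scaled to nuclear-encoded UMIs (numpy 2.4.6, pandas 2.3.3, scipy 1.17.1). Folds are log2 ratios after adding 10 CPM. A member was described in its leading class, and in each other class where it reached 50 CPM and 50 UMIs and passed 2-fold in a comparison, and of the other lists the genes with the largest folds of that kind were named. With 1 library a group, no test was made. Bounds against 0 UMIs use a floor of 3 counts over the class in that library. In simulated Kupffer-like counts (8113 to 8559 genes per comparison), 100 of 100 genes set at 4-fold, 0 of 100 at 1.5-fold and 0 unchanged genes were called. The simulated sums held counting error alone, and the changed genes were well measured. The outcome therefore says nothing about levels that rest on single cells or small classes. The alternatives changed doublet removal, the mitochondrial and UMI limits, the resolution, the pseudocount, the minimum level, the scaling, the weight of cells and the cell with most UMIs. Another 2, on NK-like and B-like clusters, were chosen after seeing the data. Members and lists were chosen with earlier results of these data known.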

Additional observations from a re-analysis of the deposited data

Results flagged for a closer look

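For 4 ligands the library difference ran in opposite directions in a pair of classes, with each log2 fold past 2-fold under every alternative that gave a value. The folds in lipid-associated macrophage-like cells had none at a minimum of 1000 UMIs or at resolution 0.5. The difference between the classes itself was not tested, since each group is 1 library. Ccl3 was higher than in control in T-like cells and lower in lipid-associated macrophage-like cells, with log2 folds of 4.23 and -1.51 for low-AFP. The same pair of folds was 4.22 and -2.23 for high-AFP, and for HCC it was 5.21 and -1.87. Ccl4 was higher in T-like cells in the same comparisons, at 4.57, 4.53 and 5.16, and lower in plasmacytoid dendritic-like cells of low-AFP (-1.52), lipid-associated macrophage-like cells of high-AFP (-1.475) and Kupffer-like cells of HCC (-1.38). Ccl2 was higher in HCC than in control in cholangiocyte-like cells (5.53, from 44 and 58 cells) and lower in classical monocyte-like cells (-2.19). Cxcl9 was higher in HCC than in control in lipid-associated macrophage-like cells (3.31) and lower in classical monocyte-like cells (-1.70). As given above, single HCC cells held a large part of the UMIs of Ccl2 in cholangiocyte-like and of Cxcl9 in lipid-associated macrophage-like cells. A single control cell did so for Cxcl9 in classical monocyte-like cells. All of these comparisons share the control library, whose T-like class leaves out cells with T markers that were named NK-like.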

How the results depend on the processing

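Of 2487 recomputed folds of the 197 named ones, 2318 kept their direction and stayed past 2-fold, 134 dropped under 2-fold and 35 reversed. Values were to be had for 163 of the 197 at resolution 0.5, 161 at 1000 UMIs and 195 each at 15% mitochondrial UMIs and with no doublet removal. The causes of these changes were not tested, beyond what each setting does by construction. Pairs higher in low-AFP than in control numbered 27 with a minimum of 30 CPM and 30 UMIs and 24 without the cell with most UMIs, and pairs lower 27 with no doublet removal and 26 with a pseudocount of 1 CPM. Pairs higher in high-AFP than in control numbered 31 without the top cell. For high-AFP against low-AFP, 18 were higher at 30 CPM and 30 UMIs, and 13 lower, against 32 lower with a pseudocount of 1 CPM and 11 without the top cell. For HCC, 19 were lower than in control at a minimum of 1000 UMIs and 13 lower than in high-AFP at 30 CPM and 30 UMIs. Ligands with 1 leading class numbered 13 with no doublet removal, 12 at a mitochondrial limit of 15%, 11 at 1000 UMIs and 13 at resolution 0.5. With no doublet removal, log2 folds reversed for Cxcl9 in type 1 dendritic-like cells (0.47, low-AFP against control), Ccl4 there (-0.67 and -0.48, high-AFP against control and low-AFP), Ccl5 in other endothelial-like cells (1.47, high-AFP against low-AFP), Ccl4 there (-0.45, HCC against control) and, for HCC against high-AFP, Ccl4 in mature dendritic-like (-0.33), Ccl5 in patrolling monocyte-like (3.04), Ccl22 (0.70) and Cxcl10 (0.60) in type 1 and Ccl5 (-0.050) and Cxcl10 (-0.43) in type 2 dendritic-like cells. At 15% mitochondrial UMIs the same was seen for Cxcl9 (0.22) and Ccl4 (-0.79 and -0.55) in type 1, Ccl4 in mature (-0.28), Ccl22 (0.33) and Cxcl10 (0.34) in type 1 and Cxcl10 in type 2 dendritic-like cells (-0.19), and, for high-AFP against control, Ccr2 in NK-like (-0.27) and Cxcl9 in hepatocyte-like cells (-0.64). At 1000 UMIs the reversals were Ccr2 in NK-like (-0.39) and Cxcr6 in T-like cells (0.48) in high-AFP, Cxcl10 in Kupffer-like (0.33) and Ccl9 in neutrophil-like cells (-0.10) in HCC against control, and Cxcl10 in type 2 dendritic-like cells (-0.27), which at resolution 2 was -0.21. Without the top cell Ccl4 reversed in type 1 dendritic-like (-0.027 and -0.30, high-AFP against control and low-AFP) and patrolling monocyte-like cells (-0.53), and Cxcl9 in lipid-associated macrophage-like cells (-0.11, HCC against high-AFP). Other reversals were Cxcl10 in Kupffer-like cells with every cell weighing the same (0.94), Ccl5 in classical monocyte-like cells at resolution 0.5 (-0.20), Ccr2 in NK-like cells of the Ncr1-led cluster alone (-0.41), and Ccl5 in B-like cells with the cluster led in part by Klra7 (-2.95 and -4.02, HCC against control and high-AFP). No paired analysis was possible because each group holds 1 library. Depth limits the small classes: neutrophil-like cells numbered 45 in the control.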

Other observations

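Unnamed clusters also carried members. A cluster of 47 control cells led by Dcn, Col3a1 and Col1a1, collagen-matrix genes, held Cxcl12 at 4826 CPM and Ccl2 at 408.5 CPM (95% counting intervals 4534 to 5132 and 327 to 505). A cluster led by Ms4a7, C3ar1 and Trem2, with 34 cells in each AFP library, held Ccl5 at 2043 CPM in low-AFP and 4425 in high-AFP, beside the monocyte receptors Ccr2 at 793 and 845 CPM and Cx3cr1 at 393 and 452 CPM. Its Ccl4 stood at 1434 and 255.5 CPM. In the HCC library, a cluster of 180 cells led by Trdc and Il7r, genes of gamma-delta T and innate lymphoid cells, held Cxcr6 at 649.8 CPM, Ccr2 at 334 CPM and Ccl5 at 711 CPM.

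Other unnamed clusters of the HCC library carried Ccl5 as well. It was at 292 CPM in 267 cells led by Akr1c18 and Afp, which also held Ccl9 at 249 CPM, at 217 CPM in 309 cells led by Oat and Glul, and at 304 CPM in 60 cells led by Cyp2a4, Afp and Cdkn2a. The barcodes under the gene or UMI limits held Ccl5 at 171 CPM in that library, and their part in these levels was not tested.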
